A study of Mus musculus with 6 samples.

Results

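Ring1, Rnf2, Pcgf1, Pcgf3, Pcgf5, Pcgf6, Rybp, Yaf2, Kdm2b and L3mbtl2 encode the E3 ligases of Polycomb repressive complex 1 (PRC1) and the subunits that set its variant forms apart from the canonical one. They were found by gene symbol in the transcript tables: all 10 symbols matched, as 10 of 52550 genes and 71 of 131100 transcripts. RNA was sequenced from tumour tissue of mouse medulloblastoma, a tumour of the cerebellum, in 3 Eed mutant and 3 Eed wild-type samples. The labels give the genotype only. The sources used here do not give the Eed allele, any Cre or other driver, the tumour model, strain or age. They also do not say whether each sample is a separate animal, and p-values here measure only the spread between these samples. The comparison asks whether transcript levels of the PRC1 enzymes differ with the genotype of Eed, a core subunit of PRC2.

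PRC1 attaches ubiquitin to histone H2A, and PRC2 methylates histone H3. Ring1 and Rnf2 are alternative catalytic subunits present in all PRC1. The Pcgf subunit bound to them defines the form: with Bmi1 or Pcgf2 and a Cbx protein it is canonical PRC1, which binds PRC2-methylated chromatin, and with Pcgf1, Pcgf3, Pcgf5 or Pcgf6 and Rybp or Yaf2 it is variant PRC1, which can be recruited without that methylation. Kdm2b brings the Pcgf1 complex to unmethylated CpG-rich promoters, and L3mbtl2 belongs to the Pcgf6 complex.

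Promoters of alternative starts are shown for Kdm2b and Pcgf5, whose transcripts come from several annotated starts, with the counts by start described below. The letters come from RefSeq on GRCm38.p6 and run 5′ to 3′ on the gene's strand toward the start. Capitals mark matches to the GC box GGGCGG or the CCAAT box CCAAT on either strand.
Kdm2b-203 upstream start, chr5:122988537-122988757, minus strand: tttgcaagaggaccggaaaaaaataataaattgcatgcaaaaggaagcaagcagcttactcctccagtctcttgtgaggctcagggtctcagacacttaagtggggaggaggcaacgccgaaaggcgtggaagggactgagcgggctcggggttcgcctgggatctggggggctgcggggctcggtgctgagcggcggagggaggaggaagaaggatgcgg
Kdm2b internal start, chr5:122900356-122900600, minus strand: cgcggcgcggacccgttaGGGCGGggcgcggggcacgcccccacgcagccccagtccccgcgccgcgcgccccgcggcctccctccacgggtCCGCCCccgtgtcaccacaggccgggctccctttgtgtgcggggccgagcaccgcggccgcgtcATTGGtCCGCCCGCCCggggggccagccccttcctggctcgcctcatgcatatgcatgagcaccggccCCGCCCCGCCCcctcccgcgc
Pcgf5-211 start, chr19:36348079-36348308, plus strand: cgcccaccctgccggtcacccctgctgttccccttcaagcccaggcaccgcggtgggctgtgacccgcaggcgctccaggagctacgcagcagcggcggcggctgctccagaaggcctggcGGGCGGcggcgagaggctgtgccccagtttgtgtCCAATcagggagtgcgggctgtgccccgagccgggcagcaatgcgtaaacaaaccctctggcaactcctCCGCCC
Pcgf5-210 start, chr19:36409498-36409747, plus strand: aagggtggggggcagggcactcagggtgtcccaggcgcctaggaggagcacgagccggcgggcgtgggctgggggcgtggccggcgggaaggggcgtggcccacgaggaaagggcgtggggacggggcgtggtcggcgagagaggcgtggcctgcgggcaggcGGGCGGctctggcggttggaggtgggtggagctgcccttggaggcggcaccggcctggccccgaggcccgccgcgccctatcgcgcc
In the 250 bases before the RefSeq start, the internal Kdm2b window held 38 CpG and was 80.8% G or C, and the Kdm2b-203 window held 12 CpG and was 58.4% G or C. The Kdm2b-202 window, which overlaps an exon of another Kdm2b transcript and is not printed, held 27 CpG. The Pcgf5 windows held 23 CpG at the Pcgf5-211 start and 28 at the Pcgf5-210 start, and the median over all 32817 RefSeq windows of that length was 6. The internal Kdm2b window matched the GC box 6 times, with 2 pairs of matches overlapping each other, and the CCAAT box 1 time. The Kdm2b-203 window matched neither. The Pcgf5-211 start matched the GC box 2 times and the CCAAT box 1 time, and the Pcgf5-210 start matched the GC box 1 time. Over all windows, 32.7% held a GC box and 33.8% a CCAAT box. The TATA box TATAAA, the E-box CACGTG and the cyclic AMP element TGACGTCA, held by 12.4%, 6.02% and 1.55% of all windows, were matched in none of these windows.

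Libraries held 26186236 to 26425111 estimated counts each, and 28424 to 28635 genes had a count above 0. Levels below are CPM, estimated counts scaled to library size and composition, and TPM where genes are compared with each other. Eed itself had 32.6, 36.8 and 30.7 CPM in Eed mutant tumours, against 43.8, 30.1 and 35.6 CPM in wild-type tumours. These groups overlapped (log2 fold change -0.13, 95% interval -0.47 to 0.21), and with the allele not given the level does not check the labels. The granule lineage markers Atoh1, Barhl1, Neurod1, Zic1 and Pax6 were all detected, with summed levels of 2480 to 3197 CPM in mutant and 2769 to 3558 CPM in wild-type tumours. Of the 5, only Atoh1, a progenitor gene, had an unadjusted p under 0.05, with 172, 172 and 137 CPM in mutant tumours, against 116, 75.3 and 127 CPM in wild-type tumours (edgeR adjusted p = 0.202), and the others had log2 fold changes of -0.33 to -0.09. Oligodendrocyte markers summed to 326 to 400 CPM in mutant and 507 to 1436 CPM in wild-type tumours, and all 6 had an unadjusted p under 0.05. Purkinje cell markers summed to 381 to 531 CPM in mutant and 582 to 925 CPM in wild-type tumours, with 3 of 5 lower at that p. Skeletal muscle markers summed to 55.9 to 298 CPM in mutant and 4.0 to 20.4 CPM in wild-type tumours, with 6 of 6 higher. Endothelial markers summed to 144 to 148 CPM in mutant and 99.4 to 130 CPM in wild-type tumours, with 3 of 5 higher. Astrocyte and microglia marker sums overlapped between the groups, with 1 of 5 lower at that p in each (Aqp4 and Csf1r). All 5 microglia markers had a log2 fold change below 0. An unadjusted p under 0.05 was reached by 18.1% of all genes tested. DESeq2 called 6 of 6 oligodendrocyte markers, 2 of 5 Purkinje cell markers and Csf1r (adjusted p = 0.026) lower. It called 5 of 6 skeletal muscle and 2 of 5 endothelial markers higher, and no granule lineage or astrocyte marker. Of all genes to which DESeq2 gave an adjusted p, it called 5.22%. No marker of these lists was at 0 in all libraries. In bulk tissue, fewer cells of a type and less RNA per cell cannot be told apart, and the part of these cell types in the member values was not tested.

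All 10 genes were expressed in every tumour, and differences between the genotypes were small. Log2 fold changes, mutant minus wild type, lay between -0.21 and 0.30. No member passed the edgeR quasi-likelihood test at an adjusted p of 0.05, where 0.00% of the 19145 genes tested were called. At an unadjusted p under 0.05 there were 3 of 10 members, Rnf2 and Pcgf5 measured higher in mutant tumours and Pcgf6 lower, against 18.1% of all genes tested (9.29% higher, 8.78% lower). Groups did not overlap for 4 of 10, these genes and Pcgf3, against 25.0% of all genes tested (13.1% higher, 11.9% lower). The median log2 fold change was 0.09 over the members and -0.0089 over all genes. DESeq2 called 1 of the 10 (Rnf2), against 5.22% of the 17679 genes to which it gave an adjusted p. The plot of log2 fold changes shows the interval of each gene.

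**Figure D1:**
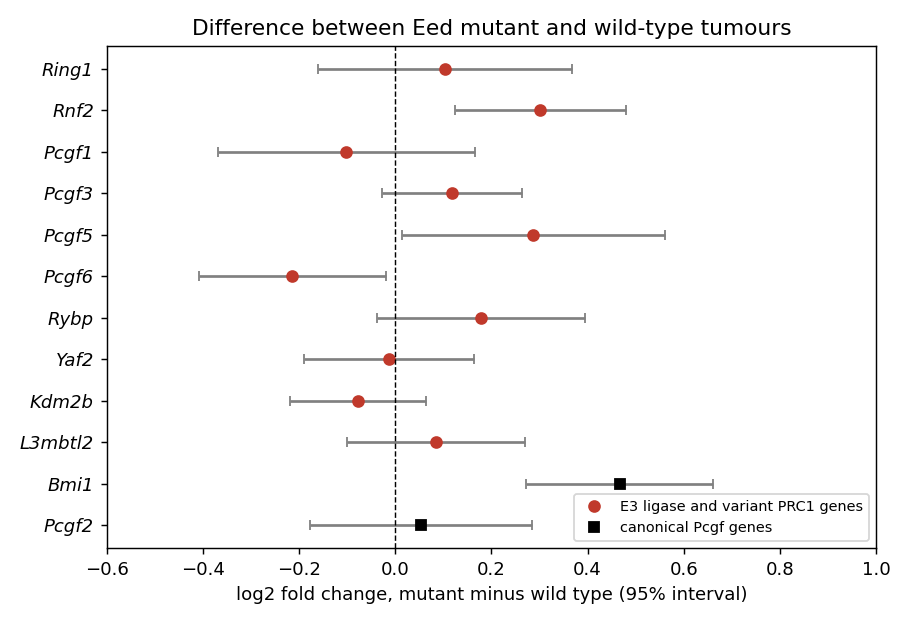
Log2 fold change, mutant minus wild type, with its 95% interval from edgeR for the 10 genes (circles) and the canonical Pcgf genes Bmi1 and Pcgf2 (squares). The intervals of Rnf2, Pcgf5 and Bmi1 lie above 0 and that of Pcgf6 below 0, while the others include 0.

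Of the E3 ligases, Rnf2 (chr1:151458004-151500955, minus strand, GENCODE M21 on GRCm38) had the clearest difference. It had 153, 153 and 136 CPM in mutant tumours, against 113, 118 and 127 CPM in wild-type tumours. Every mutant sample lay above every wild-type sample. The means were 147 ± 10.1 CPM in mutant and 119.5 ± 7.27 CPM in wild-type tumours (SD, n = 3 each), a ratio of 1.23 with a 95% interval of 1.09 to 1.40. The log2 fold change was 0.30 (SE 0.076), with an edgeR unadjusted p of 0.00505 and adjusted p of 0.154. DESeq2 gave an adjusted p of 0.0478, which passed in 1 of the 6 fits that each left out a library and reached 0.465 in the weakest. Rnf2-201, the main coding transcript, held 90.3% ± 0.29 of the gene's estimated counts in mutant and 88.8% ± 3.09 in wild-type tumours, with overlapping shares. It had 3615, 3586 and 3236 counts in mutant, against 2734, 2672 and 2997 in wild-type tumours, and a log2 fold change of 0.33 (edgeR adjusted p = 0.393, DESeq2 adjusted p = 0.0234). Rnf2 shares 158 of its 4127 exon bases with Trmt1l on the other strand, which averaged 44.8 CPM. Since the strand setting was not given, reads there cannot be separated.

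Ring1 (chr17:34020792-34024680, minus strand), the other ligase, had 17.6, 21.3 and 19.8 CPM in mutant tumours, against 20.1, 17.7 and 16.9 CPM in wild-type tumours. The groups overlapped, and the log2 fold change of 0.10 had a 95% interval of -0.16 to 0.37 (edgeR adjusted p = 0.652). The coding transcript Ring1-201 held 62.9%, 67.8% and 72.0% of its counts in mutant and 67.9%, 58.9% and 59.6% in wild-type tumours. The retained-intron transcript Ring1-203 held 32.0%, 28.9% and 25.8% in mutant and 29.6%, 36.1% and 37.0% in wild-type tumours. In TPM, which is scaled for transcript length, Rnf2 exceeded Ring1 in every sample. The ratio of Rnf2 to Ring1 gene sums was 5.88, 6.44 and 6.33 in mutant tumours, against 5.14, 5.53 and 5.95 in wild-type tumours. The Ring1 sum includes the short retained-intron Ring1-202, at 7.14, 5.40 and 3.57 TPM in mutant and 3.89, 6.80 and 4.51 TPM in wild-type tumours. The coding Ring1-201 alone had 8.29, 10.7 and 10.8 TPM in mutant and 10.6, 7.94 and 7.78 TPM in wild-type tumours. Ring1 made up 14.5%, 13.4% and 13.6% of the summed ligase TPM in mutant tumours, against 16.3%, 15.3% and 14.4% in wild-type tumours. The difference of -1.45 percentage points had an exact two-sided permutation p of 0.2, where the smallest that 3 against 3 allows is 0.1. With protein-coding transcripts only, the difference was -0.58 points (exact permutation p = 0.7). The summed TPM of both ligases was 129, 147 and 128 in mutant and 111, 122 and 112 in wild-type tumours, without overlap.

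**Figure D2:**
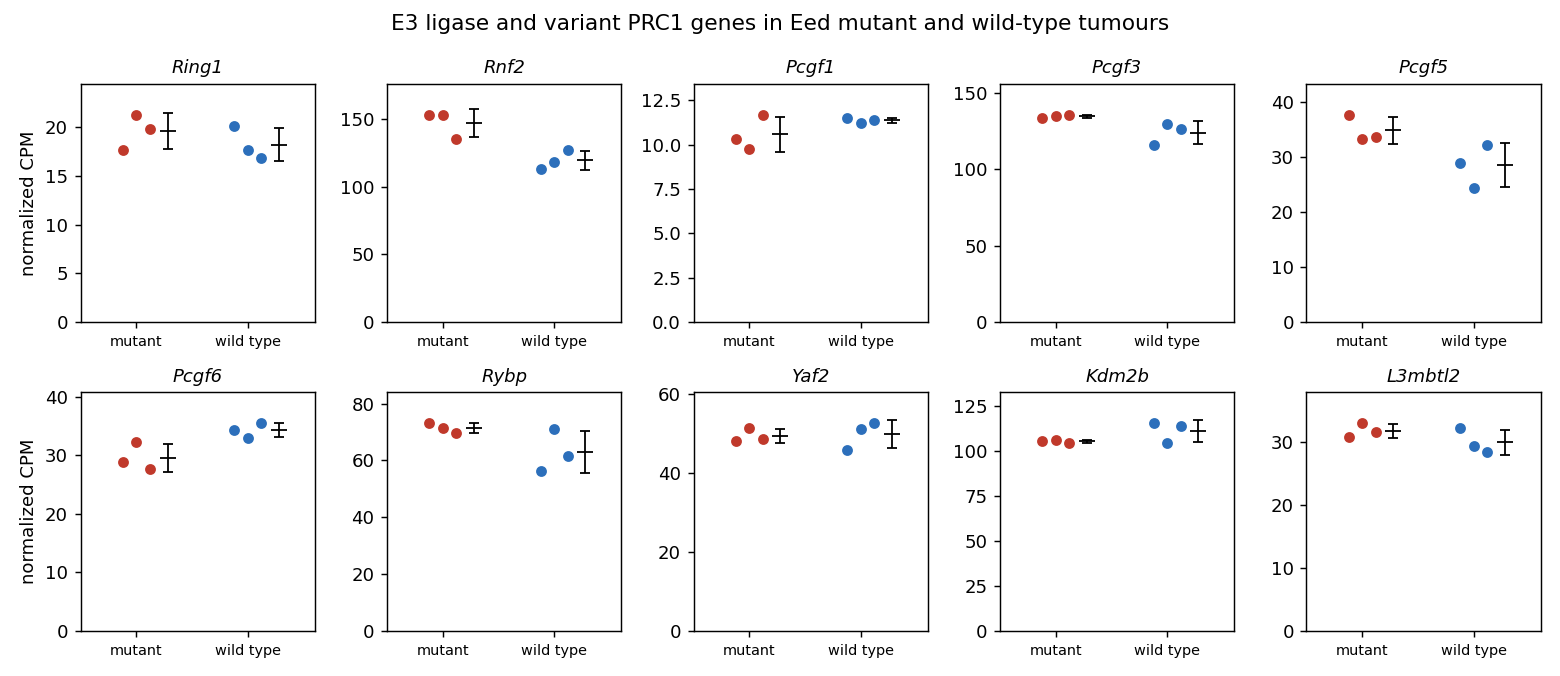
Normalized CPM of the 10 genes in each tumour (points), with the mean and SD of each group (bars, n = 3). The 3 mutant samples lie above the 3 wild-type samples for Rnf2, Pcgf3 and Pcgf5 and below them for Pcgf6, and the groups overlap for the other genes.

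Rybp and Yaf2 are related proteins that take the place of Cbx subunits in variant PRC1, and Rybp is known to stimulate its ligase activity. Rybp (chr6:100228565-100287485, minus strand) had 73.0, 71.3 and 69.6 CPM in mutant tumours, against 56.2, 71.0 and 61.7 CPM in wild-type tumours. The mutant samples were close together, and wild-type replicate 2 reached the mutant range. Its log2 fold change was 0.18 (-0.04 to 0.40; edgeR adjusted p = 0.346). Yaf2 (chr15:93284278-93336935, minus strand) had 47.9, 51.4 and 48.5 CPM in mutant tumours, against 45.8, 50.9 and 52.4 CPM in wild-type tumours. The groups overlapped throughout, and the interval of its log2 fold change was -0.19 to 0.16. Rybp contributed 34.7%, 33.2% and 33.9% of their summed TPM in mutant tumours, against 30.6%, 33.2% and 30.2% in wild-type tumours. The difference of 2.58 percentage points had an exact two-sided permutation p of 0.2. With protein-coding transcripts only, the difference in the Rybp share was 1.88 points (exact permutation p = 0.4).

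Yaf2 counts were divided between a pair of transcripts. Yaf2-202, a processed transcript in the deposited names, held 24.3%, 20.1% and 27.8% in mutant and 28.6%, 30.6% and 25.4% in wild-type tumours. These ranges overlapped, and the coding transcript Yaf2-201 held the rest. Rybp counts lay almost entirely on the coding Rybp-201, with 99.7% ± 0.14 in mutant and 99.5% ± 0.27 in wild-type tumours. A processed pseudogene of Rybp elsewhere in the genome had 0 CPM in every library.

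None of the Pcgf genes of variant PRC1 passed the edgeR or DESeq2 test, and their log2 fold changes had both signs. Pcgf5 (chr19:36348309-36460970, plus strand) had 37.6, 33.2 and 33.5 CPM in mutant tumours, against 28.9, 24.3 and 32.2 CPM in wild-type tumours. The lowest mutant sample lay just above the highest wild-type one, and the log2 fold change was 0.29 (SE 0.12; edgeR unadjusted p = 0.0422, adjusted p = 0.261). Pcgf3 (chr5:108461232-108506976, plus strand), which with Pcgf5 forms complexes known to deposit ubiquitin broadly over chromatin in mouse embryonic stem cells, had 133, 134 and 135 CPM in mutant tumours, against 116, 130 and 126 CPM in wild-type tumours. Its groups did not overlap, but the log2 fold change of 0.12 had an interval of -0.03 to 0.26 (edgeR adjusted p = 0.350).

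Pcgf6 (chr19:47033617-47050906, minus strand), whose complex is known to hold germline genes silent in mouse embryonic stem cells, was measured in the other direction. It had 28.9, 32.2 and 27.7 CPM in mutant tumours, against 34.4, 33.0 and 35.5 CPM in wild-type tumours. All mutant samples lay below all wild-type samples, and the log2 fold change was -0.21 (SE 0.083; edgeR unadjusted p = 0.0357, adjusted p = 0.247). Pcgf1 (chr6:83077869-83080855, plus strand) had 10.3, 9.76 and 11.7 CPM in mutant tumours, against 11.5, 11.2 and 11.4 CPM in wild-type tumours. These overlapped, with a log2 fold change of -0.10 (-0.37 to 0.17; edgeR adjusted p = 0.662).

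Transcripts of the Pcgf genes were mostly of 1 main form. Pcgf6 has 1 listed transcript. Pcgf3-201 held 98.8% ± 0.41 of the Pcgf3 counts in mutant and 98.8% ± 0.18 in wild-type tumours, and Pcgf5-211, from the first of the Pcgf5 starts shown above, held 91.0% ± 0.39 in mutant and 93.0% ± 2.63 in wild-type tumours. Pcgf5-210, from the downstream start at position 36409748, had 22.4, 21.4 and 11.5 estimated counts in mutant tumours, against 0, 0 and 4.82 in wild-type tumours. Pcgf5-201, from the same start, had 6.18, 0 and 2.26 counts in mutant tumours, against 0, 7.33 and 8.41 in wild-type tumours. The start as a whole had 28.5, 21.4 and 13.7 counts in mutant tumours, against 0, 7.33 and 13.2 in wild-type tumours, a small part of the gene with almost touching groups. Pcgf5-210 passed the filter on low counts only through the mutant samples, so no test of it is given. Pcgf1 counts were spread over more forms, with Pcgf1-202 at 62.6%, 69.3% and 61.9% in mutant and 58.7%, 61.5% and 50.7% in wild-type tumours, and Pcgf1-201 at 14.0%, 13.1% and 22.9% in mutant and 11.1%, 18.02% and 25.4% in wild-type tumours. The Pcgf1-202 shares did not overlap (exact permutation p = 0.1), while those of Pcgf1-201 did.

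The makeup of the Pcgf transcript pool was compared as shares of TPM. Pcgf1, Pcgf3, Pcgf5 and Pcgf6 together made up 23.1%, 21.9% and 23.5% of the TPM of all 6 Pcgf genes in mutant tumours, against 29.2%, 27.7% and 26.9% in wild-type tumours. The groups did not overlap, the difference was -5.12 percentage points, and the exact two-sided permutation p of 0.1 is the smallest that 3 against 3 allows. Of the canonical subunits, Bmi1 held 62.8% ± 0.24 in mutant and 55.1% ± 1.57 in wild-type tumours, while Pcgf2 held 14.4% ± 0.77 in mutant and 16.9% ± 0.55 in wild-type tumours. The Pcgf2 share, like the variant share, was lower in mutant tumours without overlap. Bmi1 was the only Pcgf gene whose share was higher in mutant tumours without overlap. In absolute TPM the variant Pcgf genes summed to 102, 102 and 103 in mutant tumours, against 104, 105 and 108 in wild-type tumours, without overlap and with a smaller gap than in the shares. That sum includes the short retained-intron transcripts Pcgf1-206 and Pcgf1-208. TPM also gives the long Pcgf3-201 less weight than CPM does, so the lower sum depends on the unit. Bmi1 and Pcgf2 summed to 340, 364 and 335 TPM in mutant tumours, against 251, 274 and 294 TPM in wild-type tumours. Within the variant genes, Pcgf6 held 5.85% ± 0.26 of the pool in mutant and 8.28% ± 0.49 in wild-type tumours, Pcgf1 6.35% ± 0.72 and 8.29% ± 0.65, Pcgf3 7.5% ± 0.17 and 8.42% ± 0.41, and Pcgf5 3.12% ± 0.34 and 2.94% ± 0.18 (mutant, then wild type, SD, n = 3 each). Of these 4 genes only the Pcgf5 share overlapped between the groups. The shares are parts of a whole, so a higher Bmi1 share comes with lower shares of the others. A lower share is therefore not a lower level. In CPM, Pcgf6 was lower and Pcgf3 and Pcgf5 were higher in mutant tumours without overlap, and Pcgf1 overlapped. The stacked plot of the pool shows each tumour.

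**Figure D3:**
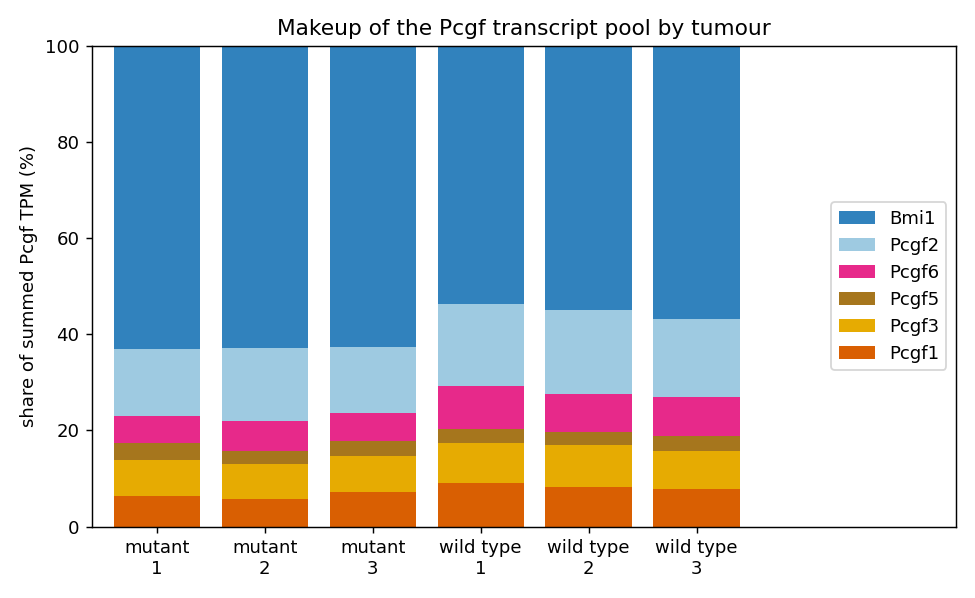
Share of the summed TPM of the 6 Pcgf genes held by each gene, in percent, with 1 bar per tumour. Bmi1 holds 62.5% to 63.0% in the 3 mutant tumours and 53.6% to 56.7% in the 3 wild-type tumours, and the 4 variant genes together hold 21.9% to 23.5% in mutant and 26.9% to 29.2% in wild-type tumours.

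Kdm2b (chr5:122870665-122989823, minus strand), a CxxC zinc finger protein with a JmjC demethylase domain in its long form, had 105, 106 and 105 CPM in mutant tumours, against 115, 104 and 114 CPM in wild-type tumours. The gene total overlapped between the groups, with a log2 fold change of -0.08 (-0.22 to 0.06; edgeR adjusted p = 0.519). Its transcripts fall into a long form from the upstream starts and a short form from an internal start, and the short form of Kdm2b is known to lack the JmjC domain and to keep the CxxC zinc finger. Kdm2b-201, the short form with 12 exons and 776 codons, starts at 122900355 in the high-CpG window shown above. Kdm2b-202, with 23 exons and 1309 codons, starts at 122989099.

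Counts from the upstream starts did not overlap between the genotypes and those from the internal start did, and neither passed the test. The division by start was made after the transcript values were seen. Upstream transcripts (Kdm2b-202, Kdm2b-203, Kdm2b-204 and Kdm2b-205) had 792, 954 and 894 estimated counts in mutant tumours, against 1141, 987 and 1240 in wild-type tumours. The highest mutant sample lay just below the lowest wild-type one. Kdm2b-201 had 1791, 1678 and 1716 counts in mutant tumours, against 1726, 1537 and 1577 in wild-type tumours. In an edgeR fit over all genes with Kdm2b split by start, the log2 fold change was -0.34 for the upstream starts (-0.60 to -0.08; unadjusted p = 0.018, adjusted p = 0.201) and 0.11 for the internal start (-0.05 to 0.27; adjusted p = 0.420). Leaving out each library gave -0.42 to -0.26 for the upstream starts, with adjusted p-values of 0.213 to 0.542, and DESeq2 gave an adjusted p of 0.130. The internal start held 69.3%, 63.7% and 65.7% of both in mutant tumours, against 60.2%, 60.9% and 56.0% in wild-type tumours. This difference of 7.25 percentage points had no overlap (exact permutation p = 0.1).

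**Figure D4:**
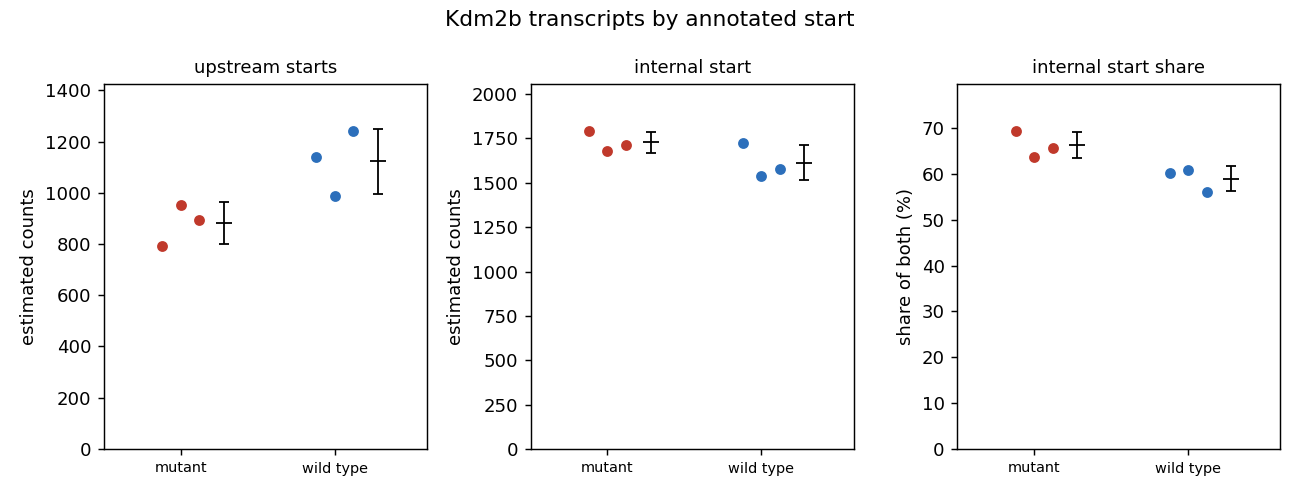
Estimated counts of Kdm2b transcripts from the upstream starts (left) and the internal start (middle), and the internal share of both in percent (right), per tumour with the mean and SD (n = 3). Upstream counts are 792 to 954 in mutant and 987 to 1240 in wild-type tumours, and the internal share is 63.7% to 69.3% in mutant and 56.0% to 60.9% in wild-type tumours.

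Single upstream transcripts of Kdm2b were poorly resolved. Kdm2b-202 had 379, 731 and 528 counts in mutant and 1031, 357 and 735 in wild-type tumours, and Kdm2b-203 had 318, 123 and 276 in mutant and 44.7, 531 and 436 in wild-type tumours. Samples of 1 group differed widely in each and in opposite ways, and their sum over the upstream starts is the value compared above. Kdm2b-201 lies within the span of Kdm2b-202, so the counts by start are estimates too. The fit by start does not model error in dividing reads between the starts. Kdm2b shares 627 of its 10869 exon bases with Rnf34 and 199 with A930024E05Rik, both on the other strand. These genes averaged 52.7 and 7.12 CPM, and with the strand setting not given, reads in the shared bases cannot be separated.

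L3mbtl2 (chr15:81663889-81688315, plus strand), an MBT-domain protein, had 30.8, 33.0 and 31.7 CPM in mutant tumours, against 32.2, 29.4 and 28.4 CPM in wild-type tumours. The groups overlapped, with a log2 fold change of 0.08 (-0.10 to 0.27; edgeR adjusted p = 0.592). L3mbtl2-201 held 89.9% ± 1.86 of its counts in mutant and 92.3% ± 2.71 in wild-type tumours. The gene shares 1023 of its 5945 exon bases with Chadl on the other strand, which averaged 3.68 CPM.

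Over all samples in TPM, Rnf2 was the most abundant of the 10, at 93.2 to 128 TPM, followed by Yaf2 at 54.8 to 63.2 and Kdm2b at 45.1 to 49.8 TPM. These ranges of gene sums do not overlap. The Rnf2 sum includes a short processed transcript, and the coding Rnf2-201 alone had 63.7 to 84.9 TPM. The Yaf2 sum includes the processed transcript Yaf2-202. The coding Yaf2-201 alone had 40.7 to 50.4 TPM, which overlaps the Kdm2b range. Pcgf3 (29.8 to 34.1 TPM), Pcgf1 (26.4 to 32.0), Pcgf6 (24.9 to 32.4) and Rybp (24.2 to 30.4) overlapped one another, as did Ring1 (16.1 to 19.8) and L3mbtl2 (13.7 to 17.6). The Pcgf1 sum includes short retained-intron transcripts, so its place beside Pcgf3, Pcgf6 and Rybp is by gene sum only. Pcgf5 was lowest by gene sum at 10.4 to 15.2 TPM, overlapping with L3mbtl2 alone. The Ring1 sum includes retained-intron transcripts, and the coding Ring1-201 alone had 7.78 to 10.8 TPM. That range overlaps the 6.62 to 9.85 TPM of the coding Pcgf5-211. Bmi1, outside this set, had 190 to 293 TPM.

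Across the 71 listed transcripts, 13 were at 0 in all libraries and 31 passed the filter on low counts. edgeR called 0 of the 31, against 0.00% of 50890 transcripts tested. Pcgf5-210 is not counted, for the limit given above, and of the others only Rnf2-201 had an unadjusted p under 0.05, against 9.81% of all. DESeq2 called 1 of 24 (Rnf2-201), against 2.43%. The share of a gene's counts on protein-coding transcripts was compared for the 9 members with other kinds of transcript. Groups did not overlap for 2 of the 9 by counts, against 11.0% of the 10563 tested genes with both kinds of transcript, and for 0 of the 9 by TPM. Pcgf5 had 98.8% ± 0.14 in mutant and 98.4% ± 0.014 in wild-type tumours, and Kdm2b had 94.7% ± 0.61 in mutant and 93.3% ± 1.36 in wild-type tumours. Both had an exact permutation p of 0.1 and an adjusted p of 0.45 over the 9 genes.

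Partner genes were counted in the same fits, and edgeR called 0 members of every list at an adjusted p of 0.05. All 19 variant PRC1 partners were tested, with 3 higher and 0 lower in mutant tumours at an unadjusted p under 0.05 and a median log2 fold change of 0.07. That is 15.8% of the list, against 18.1% of all genes tested. Bcor, the scaffold of the Pcgf1 complex, had 63.0, 60.6 and 56.9 CPM in mutant tumours, against 38.7, 40.4 and 54.2 CPM in wild-type tumours, without overlap (log2 fold change 0.44, 0.12 to 0.75; edgeR adjusted p = 0.186). Csnk2a2, a catalytic subunit of casein kinase, had a log2 fold change of 0.21 (edgeR adjusted p = 0.170). Tfdp1, the partner of E2f6, had 0.24 (adjusted p = 0.269). Usp7, a deubiquitylase, had 0.13 (adjusted p = 0.321). DESeq2 called 0 of the 19.

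The 12 canonical PRC1 subunits gave 2 higher and 0 lower at that p, 16.7% of the list against 18.1% of all genes, with a median of -0.0078. Bmi1 had 340, 346 and 312 CPM in mutant tumours, against 230, 227 and 265 CPM in wild-type tumours. The groups stood well apart, and the log2 fold change was 0.47 (0.27 to 0.66; edgeR adjusted p = 0.130). DESeq2 gave Bmi1 an adjusted p of 0.00057 and called it in all 6 fits that left out a library. It called no other canonical subunit. Of the chromodomain subunits, Cbx2 had a log2 fold change of 0.25 (edgeR adjusted p = 0.163) and Cbx6 one of -0.15 (adjusted p = 0.379). Phc2, of the polyhomeotic proteins, had 0.21 (adjusted p = 0.277). Pcgf2 had 0.05 (-0.18 to 0.28).

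The 9 genes for enzymes and cofactors that take ubiquitin off H2A gave 1 higher and 0 lower, 11.1% against 18.1% of all genes, with a median of 0.01. Foxk2, a cofactor of the Bap1 deubiquitylase, had 146, 145 and 140 CPM in mutant tumours, against 126, 126 and 120 CPM in wild-type tumours (log2 fold change 0.21; edgeR adjusted p = 0.155). Foxk1 had 0.06, Asxl1 0.04 and Asxl3 -0.15 on the log2 scale, with overlapping groups. DESeq2 called 0 of the 9.

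The 6 PRC2 core genes gave 1 higher and 1 lower, 33.3% against 18.1% of all genes, with a median of 0.10. Ezh1, the methyltransferase typical of non-dividing cells, had 38.5, 40.6 and 41.7 CPM in mutant tumours, against 62.1, 54.6 and 49.1 CPM in wild-type tumours, without overlap. Its log2 fold change was -0.46 (edgeR adjusted p = 0.144), and DESeq2 called it (adjusted p = 0.00838) and did so in 4 of the 6 fits that left out a library. Ezh2, the methyltransferase of dividing cells, had 207, 218 and 198 CPM in mutant tumours, against 173, 147 and 190 CPM in wild-type tumours (log2 fold change 0.29; edgeR adjusted p = 0.216). Suz12 had 0.21 and Rbbp7 0.16 on the log2 scale. DESeq2 called no other gene of this list.

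Of 12 germline genes known as targets of the Pcgf6 complex in mouse embryonic stem cells, 6 passed the filter on low counts. At an unadjusted p under 0.05 there were 0 higher and 1 lower, 16.7% of those 6 against 18.1% of all genes, with a median of -0.09, and DESeq2 called 0. Ddx4, a germ cell RNA helicase, had 0.729, 0.884 and 0.454 CPM in mutant tumours, against 1.32, 1.21 and 0.951 CPM in wild-type tumours, low in all samples (log2 fold change -0.75, -1.45 to -0.05; edgeR adjusted p = 0.255). Stag3 had -0.40, Sycp3 0.26 and Zcwpw1 -0.14 on the log2 scale, with overlapping groups. Hormad1 was at 0 in every library.

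The sample files carry 3 codes of unstated meaning, which were looked at only as a possible batch. Mutant replicates 1 and 2 share a code with wild-type replicate 2, and mutant replicate 3 shares one with wild-type replicate 3. Within the first code Rnf2 had 153 and 153 CPM in mutant and 118 CPM in wild-type tumours, and within the second 136 CPM in mutant and 127 CPM in the wild-type tumour. The variant Pcgf share was 23.1% and 21.9% in mutant against 27.7% in the wild-type tumour within the first code, and 23.5% against 26.9% within the second. Kdm2b upstream counts were 792 and 954 in mutant against 987 in wild type within the first code, and 894 against 1240 within the second. These results did not overlap over all samples, so their direction within a code was fixed in advance and does not check for a batch. The third code holds wild-type replicate 1 alone and allows no comparison. With the code as a term Rnf2 had a log2 fold change of 0.25 (edgeR adjusted p = 0.293).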

How the data were processed

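The authors' deposited files hold kallisto estimated counts, effective lengths and TPM per transcript, 1 file per sample, per the file headers. Per the submitters' processing notes, kallisto was version 0.43.1 and the builds were GRCm38 and mm10. The sources used here do not give the annotation release, strand setting, read length or how RNA was selected. Estimated counts were summed per gene identifier (1 for each member symbol), rounded and tested with edgeR 4.0.16 in R 4.3.3 (quasi-likelihood F-test with TMM factors and filterByExpr, Benjamini-Hochberg adjustment over all features tested, threshold 0.05). The same test was run per transcript, where error in dividing reads among transcripts is not modelled. CPM uses TMM-scaled libraries. Shares from TPM or counts were compared by exact two-sided permutation over the 3 and 3 samples. DESeq2 1.42.0 and limma 3.58.1 were alternatives. The fits were tested on simulated data with changes larger than those of the members. Power for differences of the members' size was not tested. At this depth 3 counts are about 0.114 CPM, and such floors cover counting error only.

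Coordinates are GENCODE M21 on GRCm38, and promoters RefSeq on GRCm38.p6, where 7 of the 10 genes matched. Each printed stretch ends where its window meets an annotated exon of the gene. Members and lists were chosen with earlier results of these data known. All 10 members are named. Transcripts are named with at least 10% of the gene's counts in either group mean or an unadjusted p under 0.05, and of each other list the 4 genes with the smallest p. Pcgf2, Eed as the mutated gene, Hormad1, single cell type markers, Pcgf5-201 and the Kdm2b division by start were added after values were seen.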

Additional observations from a re-analysis of the deposited data

How the results depend on the processing

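The members' log2 fold changes kept their direction under all 16 alternatives (RLE factors, no low-count filter, DESeq2, limma-voom, limma on log2 of TPM plus 1 or 0.1, a length offset, the replicate block, the file code, a robust fit and each library left out), Yaf2 excepted. Yaf2, at -0.013, ranged over -0.070 to 0.027 with a library left out and was 0.0070 without mutant replicate 1, 0.0047 without wild-type replicate 2 and 0.027 without wild-type replicate 3. Rnf2 ranged over 0.25 to 0.36, Pcgf5 0.19 to 0.38 and Pcgf6 -0.28 to -0.17. DESeq2 was the only alternative to call any: 1 member gene (Rnf2), 1 member transcript (Rnf2-201, adjusted p = 0.0234), 1 canonical subunit and 1 PRC2 gene, where edgeR called 0. The protein-coding shares that did not overlap numbered 2 with counts, 0 with TPM and 2 to 3 with a library left out. These shares, in points, reversed for L3mbtl2 (range -2.38 to 0.324) to 0.148 without mutant replicate 1 and 0.324 without wild-type replicate 3, for Pcgf1 (range -0.17 to 2.39) without mutant replicate 3, and for Rnf2 (range -0.47 to 0.965) to -0.43 without mutant replicate 1 and -0.47 without wild-type replicate 2. Log2 values that reversed were those of Eed (range with a library left out -0.25 to 0.019, 0.0089 and 0.0090 on TPM plus 1 and 0.1, 0.047 with the length offset, 0.020 with the file code, 0.019 without wild-type replicate 1), Asxl1 (range -0.012 to 0.086, without wild-type replicate 2), Zcwpw1 (range -0.29 to 0.032, without wild-type replicate 1), Kdm2b-202 (-0.35 with all libraries, range -0.68 to 0.016, without wild-type replicate 1), Kdm2b-203 (-0.48 with all libraries, range -1.0 to 0.0033, without wild-type replicate 2) and Pcgf1-201 (-0.18 with all libraries, range -0.59 to 0.14, 0.020 without mutant replicate 2 and 0.14 without wild-type replicate 3). The cause was not tested.

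The labels do not say whether replicate numbers pair the samples. Same-numbered deviations correlated at 0.227, 0.0624 and -0.135. Mutant replicates 1 and 2 correlated best with the wild-type sample of the same number, and mutant replicate 3 with wild-type replicate 2. These few values do not settle whether the samples are paired. With the replicate block edgeR called 273 of 19145 genes, 0 of them members, and Rnf2 had an adjusted p of 0.147. The variant Pcgf share had an exact p of 0.25 under the block, the smallest it allows. Without each library in turn that share differed by -5.62 to -4.48 points, the Ring1 share by -1.92 to -0.97 and the Rybp share by 2.02 to 3.51. With protein-coding transcripts only, the Ring1 share differed by -0.58 points and the Rybp share by 1.88 points.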
